A study of Mus musculus with 6 samples.

Results

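Along chromosome 9, 9 genes on the chromosome that carries Ptpn9 were followed on every array of a comparison between Meg2 knockout and wild-type newborn mouse retina. The genes are Peak1, Snupn, Gm10658, Man2c1, Neil1, Cyp1a2, Ubl7, Adpgk and Mns1. They were chosen by their measured knockout minus wild-type signal on these same arrays, so that difference is given for them as a description, with no test. Every transcript cluster (the probe group read as 1 transcript) annotated with 1 of these symbols and no other was taken. That gave 10 clusters of the 23410 clusters that carry at least 1 gene name, Gm10658 being read by 2 clusters and each other gene by 1.

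Ptpn9 encodes Meg2, a tyrosine phosphatase known for a lipid-binding domain and for a part in secretory vesicle fusion and receptor signalling. The groups were 3 Meg2 knockout and 3 Meg2 wild-type samples of retina at postnatal day 0 (P0), all on the strain background C57BL/6NTac and with no other allele or agent named. Per the labels each array, an Affymetrix Mouse Gene 1.0 ST, carried RNA of the pooled retinae of 1 animal, and the samples are called biological replicates numbered 1 to 3 in each genotype. The sources used here give neither the deleted part of Ptpn9 nor the strain in which the allele was made.

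Values are normalised log2 signals, so 1 unit is a doubling, and differences are knockout minus wild type with the moderated standard error (SE) of a limma model fitted over all 23410 named clusters. In that model 0 clusters passed an adjusted p of 0.05, which is 0% of those tested, and 803 (3.43%) lay under an unadjusted p of 0.05. With the replicate number as a block in limma, 1 cluster passed the adjusted and 2063 the unadjusted level, and the 1 was of none of the 9 genes. A cluster is called separated where every knockout array lies on one side of every wild-type array, which held for 1973 clusters (8.43%). Ptpn9 was itself separated, at 9.31, 9.58 and 9.28 in the knockout and 10.05, 9.93 and 9.94 in the wild type (difference -0.58, SE 0.0871). Of 23 retina markers 20 were measured, and 19 of them were brighter than the median cluster. Both replicate 2 arrays went against 1 animal per array: they carried Xist at 12.54 and 12.55, near the replicate 1 arrays (12.58 and 12.73), together with the Y-linked Eif2s3y at 7.66 and 7.76. Eif2s3y read 5.08 and 5.49 in replicate 1 and 10.03 and 9.39 in replicate 3, where Xist read 6.26 and 6.52. The differences of the 9 genes are therefore also given without replicate 2.

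The newborn mouse retina holds ganglion, amacrine, horizontal and cone cells already born, together with dividing progenitors that still produce rods, bipolar cells and Müller glia. The 9 genes share a chromosome and not a pathway. Snupn and Neil1 encode proteins that handle RNA and DNA, Gm10658 is a noncoding RNA, Man2c1, Adpgk and Cyp1a2 encode metabolic enzymes, Peak1 and Ubl7 encode proteins of signalling and of the ubiquitin system, and Mns1 encodes a protein of motile cilia. In bulk tissue, fewer cells of a type and less RNA per cell cannot be told apart.

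In gene order, counted over genes measured on the arrays, Snupn lies directly before Ptpn9 and Gm10658 directly after it. Peak1 is 7 genes before Ptpn9. Man2c1 is 3 and Neil1 4 genes after it, followed by Cyp1a2 at 19, Ubl7 at 24, Adpgk at 42 and Mns1 at 156. Signal was lower in the knockout in 6 of the 10 clusters (Peak1, Snupn, both of Gm10658, Adpgk and Mns1) and higher in 4 (Man2c1, Neil1, Cyp1a2 and Ubl7). The groups were separated in 6 clusters, those of Gm10658, Neil1, Ubl7, Adpgk and Mns1, and overlapped in Peak1, Snupn, Man2c1 and Cyp1a2, beside the 8.43% of all named clusters. With cyclic loess scaling Man2c1 was separated too. Nothing is read from that count, because the same difference chose the genes. The median size of the difference was 0.24 over the 10 clusters and 0.048 over all named clusters.

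**Figure D1:**
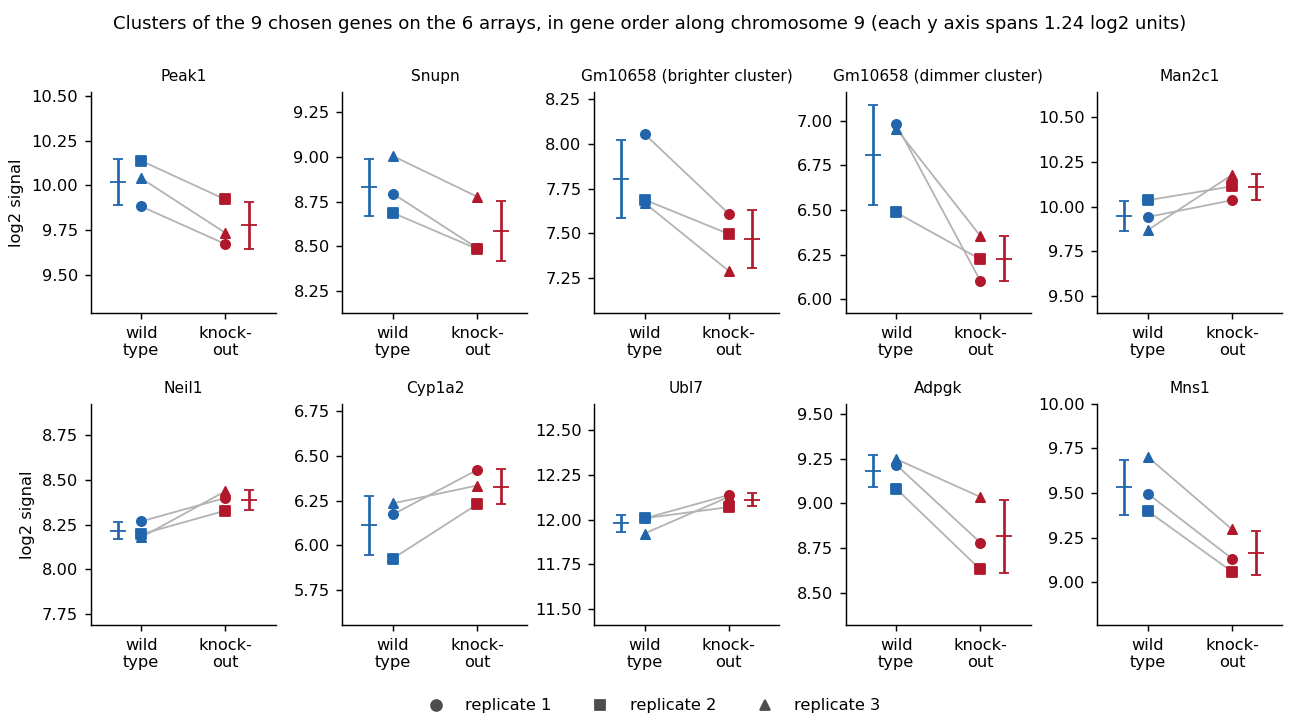
Log2 signal (y axis, 1 panel a cluster, each spanning the same range) on the 3 wild-type (blue) and 3 knockout (red) arrays, with grey lines joining arrays of the same replicate number and bars for the group mean and SD. All lines of a panel run the same way, down in Peak1, Snupn, both Gm10658 clusters, Adpgk and Mns1 and up in Man2c1, Neil1, Cyp1a2 and Ubl7.

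Promoter sequences are shown for 4 of the genes, since they carry the contrasts that position and sequence allow. Snupn and Gm10658 flank Ptpn9 and were both lower, Cyp1a2 has the promoter poorest in CpG of the 9, and Mns1 is the farthest from Ptpn9 and a cilium gene. All 9 genes matched the promoter table of RefSeq on GRCm38.p6, which gives 250 bases before and 50 after each start. The sequences read 5′ to 3′ on the gene's own strand. Capitals mark matches, on either strand, to 6 motifs: GCGTG (core of the dioxin response element), CACGTG (E-box), CCAAT (bound by NF-Y), TATAAA (bound by the TBP subunit of TFIID), GTTGCC (part of the X-box bound by RFX factors) and GGGCGG (GC box). A match on the other strand appears as its reverse complement, such as ATTGG for CCAAT.
Snupn (chr9:56950658-56950957, plus strand): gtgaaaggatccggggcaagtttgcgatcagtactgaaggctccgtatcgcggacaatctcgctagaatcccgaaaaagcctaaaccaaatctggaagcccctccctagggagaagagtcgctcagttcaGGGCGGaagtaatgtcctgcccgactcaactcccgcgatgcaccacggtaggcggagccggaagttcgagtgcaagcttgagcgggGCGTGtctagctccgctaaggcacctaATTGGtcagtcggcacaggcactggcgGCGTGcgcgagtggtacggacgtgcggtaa
Gm10658 (chr9:57071917-57072216, minus strand): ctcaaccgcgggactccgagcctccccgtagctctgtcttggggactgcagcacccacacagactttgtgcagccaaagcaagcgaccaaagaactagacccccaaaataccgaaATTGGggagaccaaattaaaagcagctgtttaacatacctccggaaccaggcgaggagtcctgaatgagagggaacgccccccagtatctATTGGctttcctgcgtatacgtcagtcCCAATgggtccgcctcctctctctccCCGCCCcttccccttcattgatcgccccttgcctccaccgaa
Cyp1a2 (chr9:57683606-57683905, minus strand): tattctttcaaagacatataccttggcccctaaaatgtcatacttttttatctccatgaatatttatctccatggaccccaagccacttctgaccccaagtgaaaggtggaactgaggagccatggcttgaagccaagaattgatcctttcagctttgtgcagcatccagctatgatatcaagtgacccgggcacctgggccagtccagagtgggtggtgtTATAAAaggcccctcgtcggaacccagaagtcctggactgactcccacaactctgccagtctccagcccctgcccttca
Mns1 (chr9:72438279-72438578, plus strand): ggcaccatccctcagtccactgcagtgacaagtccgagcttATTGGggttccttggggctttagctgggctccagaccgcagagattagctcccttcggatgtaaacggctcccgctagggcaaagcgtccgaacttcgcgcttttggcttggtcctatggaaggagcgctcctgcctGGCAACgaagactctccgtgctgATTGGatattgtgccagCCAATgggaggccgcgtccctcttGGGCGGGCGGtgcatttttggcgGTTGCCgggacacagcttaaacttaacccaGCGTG

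GCGTG stood in the promoters of 5 of the 9 genes (Snupn, Peak1, Ubl7, Adpgk and Mns1), beside 32.39% of the 32851 promoters in the table. CCAAT stood in 6 (the same 5 and Gm10658), beside 37.41%, and GGGCGG in 5 (Snupn, Gm10658, Peak1, Adpgk and Mns1), beside 35.66%. The 5 genes with lower signal were thus the 5 with a GC box, and each also held CCAAT. Of the 4 genes with higher signal, Ubl7 held CCAAT and none held a GC box. That split was seen after the values and has no test. TATAAA was found in Neil1, Cyp1a2 and Ubl7 (13.62% of all promoters), and in Cyp1a2 it starts 29 bases before the transcription start. The X-box letters GTTGCC occurred in Mns1 alone of the 9 genes, with matches 72 bases before and 15 after the start, beside 12.51% of all promoters. In the same promoter the GC boxes 8 and 4 bases before the start overlap each other, and in that of Peak1 a GC box overlaps GCGTG. The E-box letters CACGTG were found in 0 of the 9 and in 7.15% of all promoters. The Cyp1a2 promoter had 3 CpG and 49.7% GC, against medians of 7 CpG and 52.7% GC in the table, and the Peak1 promoter was the richest of the 9 in GC at 68.7%.

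Snupn encodes snurportin 1, the adaptor that carries newly capped spliceosomal U snRNPs back into the nucleus with importin beta, a step that every dividing or maturing retinal cell needs for splicing. Its cluster (10585601, Entrez gene 66069) read 8.49, 8.49 and 8.78 in knockout replicates 1, 2 and 3 (8.59 ± 0.17, SD, n = 3) and 8.80, 8.69 and 9.01 in the wild type (8.83 ± 0.16). The highest knockout array, replicate 3, lay above the wild-type replicate 2 array, so the groups overlapped. The replicate 3 array was the highest of its genotype in each group. The difference was -0.24 (SE 0.105), a knockout signal of 0.844 of wild type. Within replicate numbers it was -0.30, -0.20 and -0.23. Leaving out wild-type replicate 3 gave -0.16 for Snupn. Its other neighbour, Imp3, a component of the small subunit processome, differed by -0.0068 (SE 0.073).

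Gm10658 is annotated as a long noncoding RNA, with no known function in retina or elsewhere. In the gene table it lies on the minus strand, opposite Ptpn9 on the plus strand, and the spans of Gm10658 and Ptpn9 overlap tail to tail. On its other side it stands head to head with Sin3a, without overlap. The brighter cluster (10593882, Entrez gene 100038566) read 7.61, 7.50 and 7.29 in the knockout (7.47 ± 0.16) and 8.06, 7.69 and 7.67 in the wild type (7.81 ± 0.22). The dimmer cluster (10593884) read 6.10, 6.22 and 6.36 in the knockout (6.23 ± 0.13) and 6.98, 6.49 and 6.96 in the wild type (6.81 ± 0.28). Both clusters were separated, and both gave their smallest difference in replicate 2.

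The Gm10658 differences were -0.34 (SE 0.118) in the brighter and -0.58 (SE 0.13) in the dimmer cluster, which are 0.79 and 0.669 of wild type. By replicate number they were -0.45, -0.19 and -0.38 in the brighter and -0.88, -0.26 and -0.60 in the dimmer cluster. The dimmer cluster thus differed by as much as Ptpn9 itself. Its mean signal stood at the 20.1 percentile of named clusters, and that of the brighter cluster at the 37.7 percentile. Signal percentiles describe brightness on the array and not the amount of transcript. Without the wild-type replicate 1 array the difference of the brighter cluster was -0.21, and between group medians it was -0.19. Sin3a, a scaffold of histone deacetylase complexes that starts beside Gm10658, differed by 0.0049 (SE 0.0604). Whether probes of the Gm10658 clusters lie in the stretch shared with Ptpn9 was not tested.

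Neil1 encodes a DNA glycosylase that removes oxidised bases as the opening step of base excision repair, a pathway known to protect long-lived cells such as neurons from oxidative damage. Its cluster (10593887, Entrez gene 72774) read 8.40, 8.33 and 8.44 in the knockout (8.39 ± 0.055) and 8.27, 8.20 and 8.18 in the wild type (8.21 ± 0.047). Every knockout array lay above every wild-type array, knockout replicate 2 and wild-type replicate 1 being the nearest. The difference was 0.17 (SE 0.0598), or 1.13-fold, and by replicate number 0.13, 0.13 and 0.26.

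Man2c1, the gene before Neil1, encodes the cytosolic alpha-mannosidase that trims free oligosaccharides released from glycoproteins during quality control. Its cluster (10585652, Entrez gene 73744) read 10.04, 10.11 and 10.18 in the knockout (10.11 ± 0.071) and 9.94, 10.04 and 9.87 in the wild type (9.95 ± 0.084). The knockout replicate 1 array and the wild-type replicate 2 array had the same signal of 10.04, which is where the groups met. The difference was 0.16 (SE 0.0678), or 1.12-fold. By replicate number it was 0.094, 0.078 and 0.31, and without both replicate 3 arrays it was 0.086. Man2c1 and Neil1 face each other tail to tail without overlap. Their outer neighbours, Sin3a at 0.0049 and Commd4 at 0.062 (SE 0.0749), were not separated.

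Cyp1a2 encodes a cytochrome P450 of liver that is induced through the aryl hydrocarbon receptor and metabolises caffeine and aromatic amines. Its cluster (10593981, Entrez gene 13077) was the dimmest of the 10, at the 16.5 percentile of signal. It read 6.42, 6.23 and 6.34 in the knockout (6.33 ± 0.096) and 6.17, 5.93 and 6.24 in the wild type (6.11 ± 0.16). The wild-type replicate 3 array lay just above the knockout replicate 2 array. The difference was 0.22 (SE 0.0908), or 1.16-fold, and by replicate number 0.25, 0.30 and 0.10. Without the wild-type replicate 2 array it was 0.12. Cyp1a1, which lies head to head beside it and is the other classical target of the receptor, differed by 0.094 (SE 0.0904), with overlapping groups. The sources used here give no detection calls, so it was not tested whether this signal is above background. Of 11 measured liver markers, 0 were brighter than the median cluster, and their mean signal was 6.44 to 6.54 in the knockout and 6.42 to 6.53 in the wild type.

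Adpgk encodes the ADP-dependent glucokinase of the endoplasmic reticulum, which phosphorylates glucose with ADP in place of ATP, beside the hexokinases on which the glycolytic retina mainly draws. Its cluster (10585860, Entrez gene 72141) read 8.78, 8.63 and 9.04 in the knockout (8.81 ± 0.21) and 9.22, 9.08 and 9.25 in the wild type (9.18 ± 0.088). The groups were separated, and the knockout replicate 3 array came close to the wild-type replicate 2 array. The difference was -0.37 (SE 0.102), 0.776 of wild type, and by replicate number -0.44, -0.45 and -0.21. The gene on one side, Neo1, encoding the netrin and RGM receptor neogenin, was separated in the other direction (0.14, SE 0.0593). On the other side Bbs4, a subunit of the BBSome of cilia, differed by -0.0004 (SE 0.064).

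Peak1 encodes a pseudokinase that acts as a scaffold in focal adhesions and in signalling through Src-family kinases and growth factor receptors. Its cluster (10593856, Entrez gene 244895) read 9.67, 9.92 and 9.73 in the knockout (9.78 ± 0.13) and 9.88, 10.14 and 10.04 in the wild type (10.02 ± 0.13). In both genotypes replicate 1 was lowest and replicate 2 highest, and the knockout replicate 2 array lay above the wild-type replicate 1 array. The difference was -0.24 (SE 0.0887), 0.844 of wild type. By replicate number it was -0.21, -0.22 and -0.31. Neighbouring Tspan3, a tetraspanin, and Lingo1, an inhibitor of myelination and axon regrowth, differed by -0.066 (SE 0.0612) and -0.05 (SE 0.0633).

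Ubl7 encodes a protein with a ubiquitin-like and a ubiquitin-associated domain, the build of proteins that carry ubiquitinated cargo, though its own role is little known. It was the brightest of the 10 clusters, at the 95.4 percentile of signal. The cluster (10585767, Entrez gene 69459) read 12.14, 12.07 and 12.13 in the knockout (12.11 ± 0.036) and 12.01, 12.01 and 11.92 in the wild type (11.98 ± 0.049). The groups were separated and the difference, 0.13 (SE 0.0578) or 1.10-fold, was the smallest of the 10. By replicate number it was 0.13, 0.063 and 0.21. Its neighbours had values of the other sign without separation, Arid3b, a DNA-binding protein of the ARID family, at -0.13 (SE 0.0647) and Sema7a, a membrane-anchored semaphorin, at -0.092 (SE 0.0667).

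Mns1 encodes a coiled-coil protein inside the microtubule doublets of motile cilia and sperm flagella. Retinal photoreceptors build their outer segment on a sensory cilium that does not beat, and in mice outer segments form after birth. Its cluster (10586907, Entrez gene 17427) read 9.13, 9.06 and 9.30 in the knockout (9.16 ± 0.12) and 9.50, 9.40 and 9.70 in the wild type (9.53 ± 0.15). The groups were separated, and the lowest array was replicate 2 and the highest replicate 3 in each. The difference was -0.37 (SE 0.093), 0.774 of wild type, and by replicate number -0.36, -0.34 and -0.41. Of its neighbours, the zinc finger gene Zfp280d was separated in the other direction (0.16, SE 0.0664), and Tex9, a testis-expressed gene, differed by -0.061 (SE 0.0578). Unc13c, encoding the synaptic vesicle priming protein Munc13-3, lies 12 measured genes beyond Mns1 and was separated upward in all 7 of its clusters (0.30 to 0.83).

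All 10 clusters differed in the same direction in each of the 3 replicate numbers, which was so for 32.4% of all named clusters. Nothing is read from that count either, because choice by the group difference favours it. Since arrays of the same number deviated together over the whole array, the pairs show how the values run beside each other. With the replicate number in the model the SE fell in all 10 clusters. The SE went from 0.0887 to 0.0478 in Peak1, 0.105 to 0.0479 in Snupn, 0.118 to 0.0613 in the brighter Gm10658 cluster, 0.102 to 0.0617 in Adpgk, 0.093 to 0.046 in Mns1 and 0.0908 to 0.0558 in Cyp1a2. The change was smaller in the dimmer Gm10658 cluster (0.13 to 0.107), Man2c1 (0.0678 to 0.0606), Neil1 (0.0598 to 0.0504) and Ubl7 (0.0578 to 0.0502). Without both replicate 2 arrays each direction was the same as with them. The differences were then -0.26 for Peak1, -0.27 for Snupn, -0.41 and -0.74 for Gm10658, -0.32 for Adpgk and -0.38 for Mns1. For the higher genes they were 0.20 for Man2c1, 0.19 for Neil1, 0.17 for Cyp1a2 and 0.17 for Ubl7. Gm10658 was further apart without replicate 2 in both clusters, and Cyp1a2 and Adpgk were closer.

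**Figure D2:**
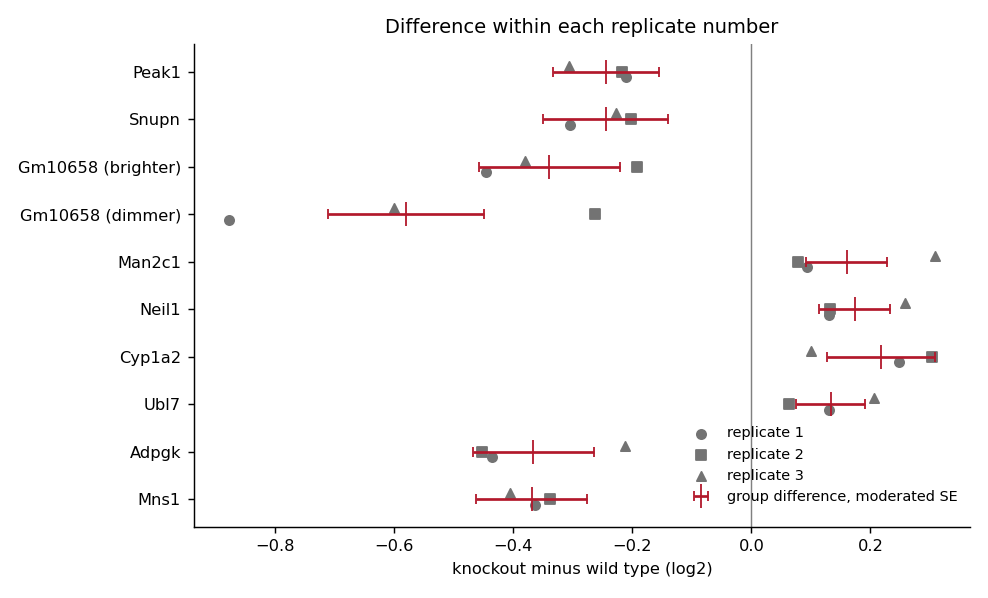
Knockout minus wild-type log2 signal (x axis) of the 10 clusters (y axis) within replicate numbers 1, 2 and 3 (grey symbols), with the group difference and its moderated SE in red. All symbols of a cluster lie on one side of 0, with the widest spread in the dimmer Gm10658 cluster, from -0.88 to -0.26.

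The arrays ordered the genes in different ways. Snupn, Adpgk and Mns1 had their lowest array in replicate 2 and their highest in replicate 3 in both genotypes, with Snupn in the knockout level at 8.49 in replicates 1 and 2, and Peak1 had replicate 2 highest in both. Over the 6 arrays Pearson's r was 0.95 between Snupn and Mns1, 0.95 between Adpgk and Mns1, 0.91 between Snupn and Adpgk, and 0.39 between Snupn and Peak1. The 2 Gm10658 clusters correlated with each other at 0.67 and with Ptpn9 at 0.79 (brighter) and 0.83 (dimmer). For the other lower genes r with Ptpn9 ran from 0.53 (Snupn) to 0.79 (Peak1). For the higher genes it ran from -0.91 (Neil1) to -0.73 (Cyp1a2). Among the higher genes r was 0.95 between Neil1 and Ubl7 and 0.20 between Man2c1 and Cyp1a2. These correlations are descriptions over 6 arrays that share the genotype difference by which the genes were chosen.

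Genes whose pattern over the 6 arrays was most like that of each cluster were sought among single-gene clusters at or above the median signal, about 10972 for each. The closest were Mettl15, a methyltransferase of mitochondrial ribosomal RNA, for Snupn (r = 0.998) and Vps29, a retromer subunit, for Mns1 (r = 0.998). Peak1 was closest to Lhfp (0.994), Man2c1 to Ctdp1 (0.994), and Neil1 to Anxa5 (0.992), which encodes the phosphatidylserine-binding annexin A5. The brighter Gm10658 cluster was closest to Trnp1 (0.987), the dimmer to Adamts3 (0.988) and Cyp1a2 to Usf2 (0.978). Ubl7 was closest to Nfkbib (0.984), an inhibitor of NF-kappa-B, which was also second for Neil1. For Adpgk the closest was Arid3b (0.987), the gene next to Ubl7. Between 7 clusters (for Ubl7) and 78 (for Snupn) of about 10972 reached r of 0.95, so each closest match was 1 of several.

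The next comparison was with the genes between and around them. Among the 25 measured genes on each side of Ptpn9, 8 of 50 were separated (16%), and 33 had lower and 17 higher values in the knockout. This window holds 7 of the 9 genes, and without them 5 of 43 were separated (11.6%), beside 8.43% of all named clusters. With the chosen genes the count was 5 of 50 after median centring of the arrays and 11 of 50 after cyclic loess. The 5 others, with the values as deposited, were Chrna3, Scaper, Cox5a, Csk and Edc3, named after their values were seen. Among the nearest 10 genes on each side, 2 of 20 were separated, and without the 5 chosen genes there 0 of 15 were. Over 50 genes on each side the counts were 11 of 100, and 7 of 92 without the chosen genes. Without Ptpn9 and the 9 genes, the window's median size of difference was 0.05. Over the 23 longest stretches of up to 51 genes along the chromosome, taken likewise, it ran from 0.039 to 0.062, the window included. At least 5 separated genes lay in 8 of these 23 stretches, the window of 43 genes included. The most, 8 of 50, lay in the stretch directly after the window, where Adpgk stands but is not counted. The stretches after that held 5 of 51, 6 of 50 and 3 of 51 in turn. Directly before the window the stretch held 1 of 51. The cause of this uneven spread was not tested.

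No threshold for choosing the genes is given in the sources used here. Inside the window Ubl7 (0.13, SE 0.0578) and Snupn (-0.24, SE 0.105) had the smallest differences relative to their SE among the chosen genes. Cox5a (-0.12, SE 0.058), a subunit of cytochrome c oxidase, and Arid3b (-0.13, SE 0.0647) came next outside them. Chrna3 (-0.17, SE 0.0668), a nicotinic acetylcholine receptor subunit of ganglion cells, was not among the chosen genes although it ranked between Peak1 and Cyp1a2.

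Over the whole of chromosome 9, 110 of 1311 single-gene clusters were separated (8.39%), 55 higher and 55 lower. Without the 9 genes and Ptpn9 103 of 1300 were (7.92%), beside 1652 clusters (8.10%) on the other chromosomes. The 19 autosomes ranged from 6.54% to 9.98%, and chromosome 9 stood at rank 9 from the highest.

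**Figure D3:**
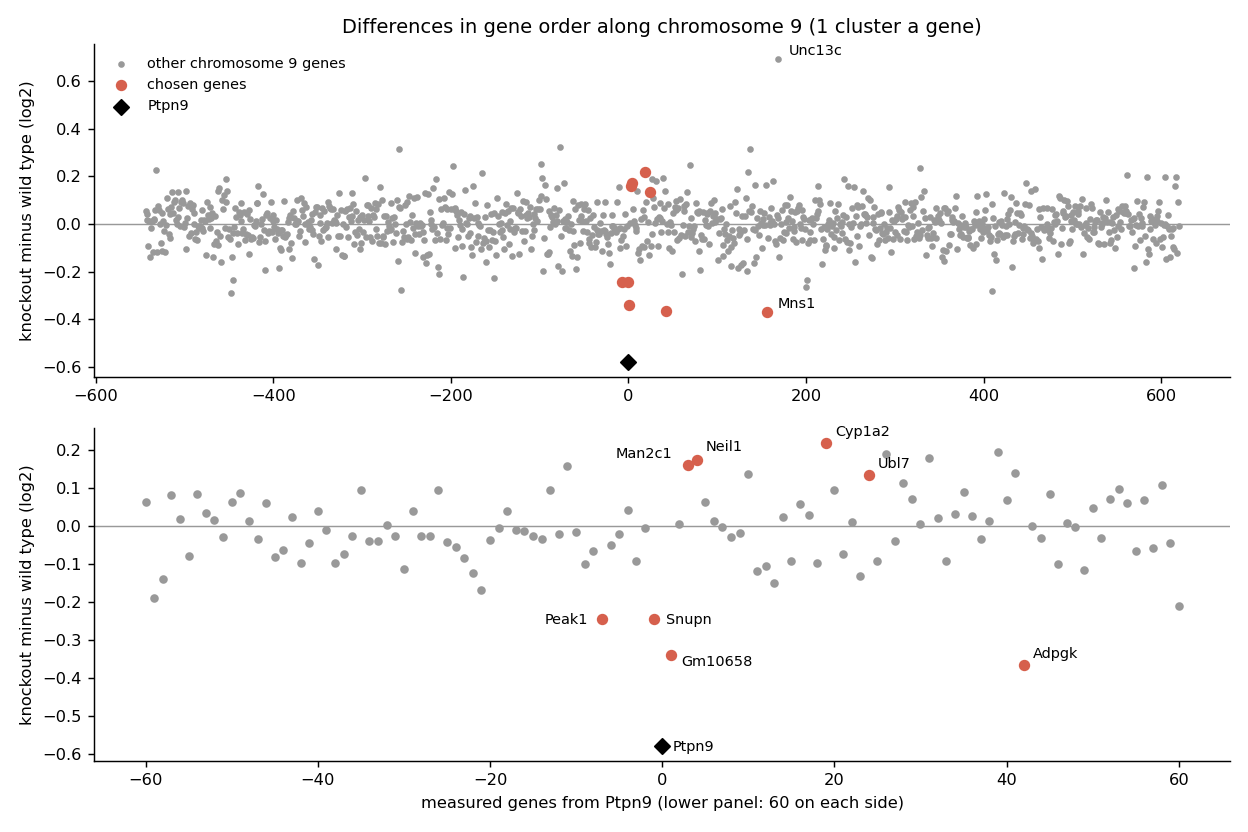
Knockout minus wild-type log2 signal (y axis) of chromosome 9 genes by their place in gene order from Ptpn9 (x axis, measured genes; 1 cluster a gene, the brightest), for the whole chromosome above and 60 genes on each side below. The chosen genes (red) stand above and below the grey neighbours between them, such as Sin3a at 0.0049 and Imp3 at -0.0068, and grey points of similar height occur elsewhere along the chromosome.

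The pathway partners of each gene were taken from lists, each gene by its brightest cluster, and in every list 0 genes passed an adjusted p of 0.05 (limma), with 0 to 3 a list under an unadjusted p of 0.05. None of the counts is a test of a list. Counts of separated genes stand beside 8.43% of all named clusters, and those under the unadjusted level of limma beside 3.43%. For Snupn, 25 other genes of snRNP assembly and import were measured, 8 with higher and 17 with lower values and a median difference of -0.022. The one separated gene among them was Smn1 (0.11), encoding the survival motor neuron protein that assembles snRNPs, and the lowest was Gemin4 (-0.10), a subunit of the same complex. For Neil1, 17 other genes of base excision repair split into 8 higher and 9 lower. Ogg1 (-0.13), the glycosylase for 8-oxoguanine, was the separated one. The relatives Neil2 and Neil3 differed by 0.047 and 0.034, and the highest value was that of Mbd4 (0.09), a glycosylase for mismatched thymine and uracil.

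For Man2c1, 11 other alpha-mannosidase and free glycan genes were measured, 8 higher and 3 lower. Ngly1 (0.10), the peptide N-glycanase that releases the glycans on which Man2c1 acts, was separated, and Man2b2 (0.11) had the highest value. The Golgi enzyme Man2a1 differed by 0.008 and the lysosomal Man2b1 by 0.072. For Cyp1a2, 10 other genes of the aryl hydrocarbon receptor pathway were 7 higher and 3 lower. The receptor's repressor Ahrr (0.19) was separated, and Tiparp (-0.064), another target, had the lowest value. For Adpgk, 9 of 10 other genes of glucose phosphorylation and upper glycolysis had higher values, opposite in sign to Adpgk. Of these higher genes 0 were separated. The median difference of the 10 was 0.045, beside a median size of 0.048 over all named clusters. The highest was the platelet phosphofructokinase Pfkp (0.24), and the one lower gene, Hkdc1 (-0.20), a hexokinase-like enzyme, was separated.

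For Peak1, 14 other genes of focal adhesions and Src adaptors were 7 higher and 7 lower. Csk (-0.098), the kinase that restrains Src and the gene next to Cyp1a2 on the chromosome, was separated. Prag1 (0.091), the closest relative of Peak1, had the highest value. For Ubl7, 8 other ubiquitin shuttles were 4 higher and 4 lower, with the autophagy receptor Sqstm1 (0.10) and the deubiquitinase Usp5 (-0.081) separated. For Mns1, 24 other genes of the motile axoneme were 11 higher and 13 lower with a median of -0.013. Dnali1 (0.19), a light intermediate chain of inner-arm dynein, and Rfx2 (-0.15), a transcription factor of ciliary genes, were separated, and Spag6l (-0.20), a central pair protein, had the lowest value. Of the Mns1 list 5 genes were brighter than the median cluster.

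**Figure D4:**
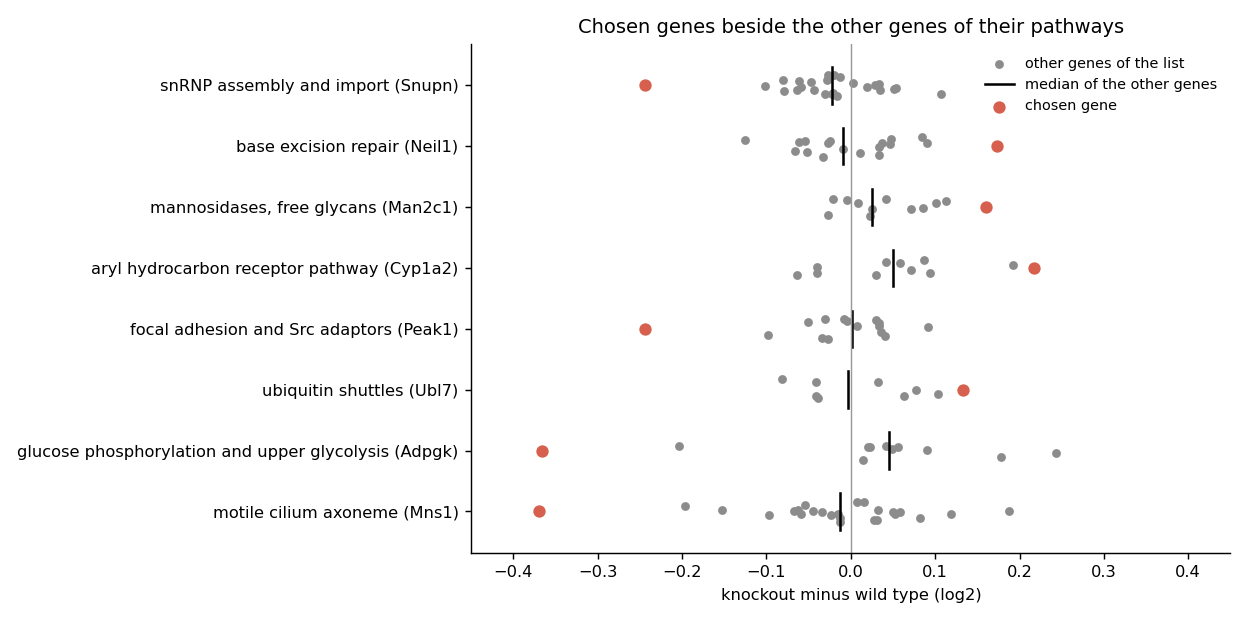
Knockout minus wild-type log2 signal (x axis) of the genes in 8 pathway lists (y axis), with each chosen gene in red, the other measured genes of its list in grey and their median as a black bar. Each red point lies beyond its grey points on its own side of 0, a position that its selection favours.

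Markers of other cell types were set beside these values, and in every list 0 passed an adjusted p of 0.05 (limma), with 0 to 4 a list under an unadjusted p of 0.05. Their counts of separated markers stand beside 8.43% of all named clusters, and those under the unadjusted level beside 3.43%. Under that level of limma lay 4 of the 14 endothelium and pericyte and 3 of the 11 microglia and immune markers. So did 1 lens and 1 pigment epithelium marker, and 0 markers of the other lists. Of 14 endothelium and pericyte markers 12 had higher values in the knockout and 4 were separated, with a mean signal of 8.03 to 8.35 in the knockout and 8.0 to 8.08 in the wild type. Of 13 lens markers 11 had higher values and 2 were separated, at 7.57 to 7.81 against 7.49 to 7.63. The separated Cryaa and Cryba1 were highest in knockout replicate 3, at 8.70 and 7.32, against 7.78 and 6.20 in knockout replicate 2. Of 12 pigment epithelium markers 8 had higher values and 1 was separated (7.48 to 7.71 against 7.49 to 7.56), with Ttr counted there and in the liver list. Of 11 microglia and immune markers 8 had higher values and 2 were separated (7.65 to 7.84 against 7.62 to 7.71). Corneal and mesenchymal markers were 4 higher and 5 lower of 9, with 2 separated (6.95 to 7.14 against 7.02 to 7.08), and erythroid markers 2 higher and 3 lower of 5, with 1 separated (7.05 to 7.14 against 7.06 to 7.13). Of the liver markers 1 of 11 was separated. The 20 retina markers, of which 0 were separated, had mean signals of 11.08 to 11.20 in the knockout and 11.09 to 11.17 in the wild type. The part of these cell types in the differences of the 9 genes was not tested.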

How the data were processed

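The deposited table holds log2 signals per transcript cluster, which the authors made, per the submitters' processing notes, with Affymetrix Expression Console and RMA. Transcriptome Analysis Console is also named there, with versions and annotation release not given in the sources used here. Since RMA sets the probe intensities of all arrays to 1 distribution, it can take out a change common to most genes. The summarised cluster values were not fully level, with medians over all clusters from 7.84 (wild-type replicate 3) to 7.91 (wild-type replicate 1). Of 35557 clusters, 21789 carried exactly 1 gene symbol in the platform annotation, and 21698 of these matched the GRCm38.p6 gene table, used for names, strand and gene order. The table's build is not stated, so no coordinates beyond those of the RefSeq promoters are given.

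Knockout and wild type were compared with limma 3.58.1 (lmFit and eBayes, R 4.3.3) over the 23410 named clusters, with Benjamini-Hochberg adjustment and no filter on dim signal. The script was tested on simulated data. Tables and figures used pandas 2.3.3 and matplotlib 3.10.9 in Python 3.11.15. P-values measure the spread between samples that the labels call biological replicates, and the 3 arrays per group limit the precision.

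The 9 genes and all gene lists were chosen with earlier results of these data known. Named genes are the 9 genes, Ptpn9, the 3 clusters most like each by Pearson's r over the 6 arrays (of which the closest is printed), the immediate neighbours, the closest relatives and the extremes of each list. Neighbours and list genes stood as their brightest single-gene cluster. Separated list members, genes near the choice and Unc13c were named after their values were seen.

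The labels do not say what the replicate number marks. Sex-linked signals ran alike by number in the knockout and the wild type. Xist was high and Eif2s3y low in replicate 1, and the reverse held in replicate 3. In replicate 2 Xist was high and Eif2s3y lay between. Whether sex accounts for the likeness of same-numbered arrays was not tested. Deviations from group means correlated at 0.476, 0.485 and 0.455 between arrays of the same number, so the numbers pair the samples by the level of 0.1 used here. Between arrays of different numbers they correlated at -0.26 to -0.20. Deviations from a group mean cancel out within the group, so these negative values follow from the positive ones and add no separate support. An alternative fit took that number as a block, beside other scalings, filters and left-out arrays. Counts for the pathway lists and the cell type markers come from the fit without the block and were not repeated with it.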

Additional observations from a re-analysis of the deposited data

How the results depend on the processing

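The 9 genes kept their direction in all 140 alternatives run over their 10 clusters. These were median centring, cyclic loess, array weights, the replicate block, group medians and left-out arrays. The choice of the genes by this same difference favours a kept direction, and the replicate block leaves the difference itself unchanged. The ranges with arrays left out were -0.32 to -0.19 for Peak1, -0.34 to -0.16 for Snupn, -0.41 to -0.21 and -0.74 to -0.43 for Gm10658, -0.48 to -0.27 for Adpgk, -0.44 to -0.28 for Mns1, 0.086 to 0.20 for Man2c1, 0.13 to 0.20 for Neil1, 0.12 to 0.28 for Cyp1a2 and 0.097 to 0.17 for Ubl7. With cyclic loess 7 of the 10 clusters were separated, Man2c1 being added, and with median centring 6. Over all named clusters the scalings gave 2372 and 1643 separated, against 1973 as deposited.

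The 803 clusters under an unadjusted p of 0.05 became 2063 with the replicate block, 431 above the median signal, 1331 with every cluster of the table and 470 to 1298 with arrays left out. The low end came without both replicate 3 arrays, and 1298 and 1221 came without the knockout replicate 1 and knockout replicate 2 arrays. The replicate block gave 1 cluster past an adjusted p of 0.05, where limma without the block gave 0. The filter to clusters above the median tested fewer clusters and left 64 separated on chromosome 9 in place of 110, where median centring gave 87 and cyclic loess 143. Near Ptpn9, 8 separated genes became 2 in the smaller window, which holds fewer genes, and 11 in the larger. They became 5 with median centring and 11 with cyclic loess, and the cause was not tested. For the count over all named clusters, leaving out both arrays of a replicate number was added after seeing the data. The 3 arrays per group and the lack of detection calls limit every value here.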
